A study of Mus musculus with 12 samples.

Results

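The genes described here are 10 homeobox genes that pattern the midbrain, hindbrain and spinal cord: En1, En2, Gbx1, Gbx2, Barhl1, Barhl2, Dbx1, Lbx1, Tlx3 and Otp. They were chosen by name, as the promoter windows whose symbol is one of these, and they make up 10 of 55276 symbols in the promoter tables. Each has 1 window of 2 kb centred on its annotated start site. The tissue was untreated forebrain of C57BL/6 mouse embryos at E12.5 (days of embryonic development), either wild type or of a genotype the labels call EedcKO. Eed was mapped by cross-linked chromatin immunoprecipitation (X-ChIP) with an input library. CUT&Tag, where a transposase held at the antibody tags the DNA next to it, served for H3K27me3, H3K27ac, RNA polymerase II (RNA-Pol2 in the labels) and the IgG control. Each of the 12 combinations of genotype and target has 1 library, and without replicates no test was run. The driver of the conditional deletion, the deleted part of Eed, and the number and sex of the embryos are not stated in the labels.

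Homeobox genes encode transcription factors that bind DNA through a homeodomain and give cells their place along the neural tube. En1 and En2 keep the midbrain and cerebellar territory, and Gbx2 sets the anterior hindbrain against it. Barhl1, Barhl2, Dbx1, Lbx1 and Tlx3 specify classes of hindbrain and spinal neurons, and Otp specifies neuroendocrine neurons of the hypothalamus. Gbx2, Barhl2, Dbx1 and Otp are also known in restricted parts of the forebrain and diencephalon, so the regional name does not cover all their domains. Where such genes are silent, Polycomb repressive complex 2 (PRC2), of which Eed is a core subunit, places H3K27me3 on their chromatin. H3K27ac and RNA-Pol2 mark promoters in use.

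Total promoter counts ran from 948955 to 3842779 per library. At the window of Eed itself the wild type and EedcKO counts were 121 and 40 in Eed, 27 and 19 in input, 31 and 79 in H3K27me3, 130 and 35 in H3K27ac, 89 and 246 in RNA-Pol2, and 20 and 50 in IgG. Since the deleted part is unknown, these counts do not test the genotype. Both EedcKO histone libraries resembled the wild type library of the other mark at these genes. Whether their labels were exchanged was not tested. The library labelled EedcKO H3K27ac held 907 to 2747 counts at the 10 promoters, where wild type H3K27me3 had 739 to 2108. The library labelled EedcKO H3K27me3 held 18 to 42 counts there, beside 19 to 56 in EedcKO IgG. Both are therefore called by their labels below, and EedcKO results for the H3K27 marks at the 10 genes are given with either library. As a check of the tissue label, the wild type H3K27ac and IgG counts were 91 and 40 at Emx1, 74 and 17 at Emx2, 34 and 30 at Lhx2, and 22 and 22 at Six3. Among these only Emx2 lay at least 2-fold over IgG (log2 ratio 1.58). Their wild type H3K27me3 counts were 1370, 387, 421 and 905 in the same order, so the check did not settle the tissue label. In bulk tissue, a mark in fewer cells and less of the mark in every cell cannot be told apart.

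RefSeq promoter sequences (build GRCm38.p6) were on hand for 7 of the 10 genes and not for En2, Gbx1 and Lbx1. The 250 bases upstream of the start are shown for 5 genes. Among the 7, Gbx2 had the most wild type H3K27me3 counts, Dbx1 the fewest and the least Eed, and Tlx3 the most H3K27ac counts. Barhl1 and Barhl2, added after their values were seen, are the paralogs with the lowest and the highest CpG content of the 7 at the starts nearest the window centres. Each is written 5′ to 3′ on the gene's strand, with CpG dinucleotides in capitals.
Gbx2 (chr1:89931177-89931426, minus strand): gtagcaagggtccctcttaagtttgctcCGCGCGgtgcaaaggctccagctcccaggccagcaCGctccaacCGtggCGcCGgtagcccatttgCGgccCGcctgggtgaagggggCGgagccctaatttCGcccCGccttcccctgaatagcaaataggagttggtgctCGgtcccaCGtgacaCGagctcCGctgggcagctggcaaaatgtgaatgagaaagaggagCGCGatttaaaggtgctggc
Dbx1 (chr7:49636836-49637085, minus strand): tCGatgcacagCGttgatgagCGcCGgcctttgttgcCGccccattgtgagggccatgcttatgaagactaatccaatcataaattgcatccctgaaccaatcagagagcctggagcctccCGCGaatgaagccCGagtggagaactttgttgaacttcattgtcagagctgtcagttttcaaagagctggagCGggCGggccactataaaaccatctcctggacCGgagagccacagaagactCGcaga
Tlx3 (chr11:33203589-33203838, minus strand): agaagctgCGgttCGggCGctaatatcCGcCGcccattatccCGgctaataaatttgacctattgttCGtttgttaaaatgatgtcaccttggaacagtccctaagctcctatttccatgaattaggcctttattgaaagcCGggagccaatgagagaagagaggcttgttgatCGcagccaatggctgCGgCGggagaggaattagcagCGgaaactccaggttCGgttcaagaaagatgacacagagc
Barhl1 (chr2:28916669-28916918, minus strand): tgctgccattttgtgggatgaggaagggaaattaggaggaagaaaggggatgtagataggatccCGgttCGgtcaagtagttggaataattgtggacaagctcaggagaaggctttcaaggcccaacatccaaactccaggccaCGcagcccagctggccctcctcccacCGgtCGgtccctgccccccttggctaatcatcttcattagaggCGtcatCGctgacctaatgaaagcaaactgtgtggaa
Barhl2 (chr5:106458167-106458416, minus strand): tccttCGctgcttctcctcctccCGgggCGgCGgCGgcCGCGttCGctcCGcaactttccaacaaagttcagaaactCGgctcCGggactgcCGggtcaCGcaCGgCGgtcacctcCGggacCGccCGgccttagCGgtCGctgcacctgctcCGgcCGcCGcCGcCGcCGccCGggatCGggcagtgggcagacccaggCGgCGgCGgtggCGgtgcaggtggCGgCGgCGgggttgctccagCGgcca
The stretch of Barhl2 held 36 CpGs and was 74.8% G or C, and 2.58% of 32851 RefSeq promoters have as many CpGs. That of Barhl1 held 7 CpGs at 52.8% G or C, a count that 46.3% of promoters reach. Another RefSeq start of Barhl1, 4172 bp from the window centre and not shown, had 12 CpGs at 56.8% G or C. A count of 12 is reached by 33.5% of promoters. Gbx2, Dbx1 and Tlx3 held 18, 12 and 13, and En1 and Otp 19 and 18, beside a median of 6 over all promoters. The letters TAATTA, a core that homeodomains can bind and which reads the same on both strands, were in none of the 7 stretches and in 4.84% of all promoters.

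All 10 promoters carried heavy H3K27me3 in the wild type forebrain. Their counts ran from 739 at Gbx1 to 2108 at Lbx1 with a median of 1177.5, against a median of 26 over all promoters. Wild type IgG had 17 to 36 counts at the same windows. Relative to IgG, scaled by library totals, all 10 lay at least 2-fold higher, as did 7.62% of 50747 promoters tested. The lowest log2 ratio was 3.82 at Gbx1 (exact 95% interval 3.30 to 4.59) and the highest 5.14 at Gbx2 (4.60 to 5.95). The intervals cover counting error only.

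Within the set the level of H3K27me3 was uneven. Lbx1, which specifies inhibitory interneurons of the dorsal spinal cord (chr19:45234812-45236811), had 2108 counts and ranked 7 of 55276 promoters. Gbx2, with 1685 counts (chr1:89930179-89932178), ranked 45. Barhl1, known from cerebellar granule neurons, had 1406 (chr2:28915668-28917667), and En1 had 1344 (chr1:120601418-120603417). Barhl2 (1184 counts, chr5:106457166-106459165), Tlx3 (1171, chr11:33202589-33204588) and Otp (1102, chr13:94874602-94876601) lay close together. En2 (999, chr5:28164694-28166693) and Dbx1 (968, chr7:49635849-49637848) followed, and Gbx1 (739, chr5:24526202-24528201) was lowest at rank 726, within the top 1.31% of promoters.

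H3K27me3 counts of paralogs differed by more than counting error, if each read is taken as a separate molecule. Gbx2 had 2.28 times the H3K27me3 counts of Gbx1 (interval 2.09 to 2.49), and both windows have the same length. En1 had 1.35 times the counts of En2 (1.24 to 1.46), and Barhl1 had 1.19 times those of Barhl2 (1.10 to 1.28). In wild type IgG, Barhl1 had 2.12 times the counts of Barhl2 (1.16 to 4.02), and over IgG the order of this pair turned, with log2 ratios of 4.07 at Barhl1 and 4.85 at Barhl2. The direction was the same in the library labelled EedcKO H3K27ac, where Gbx2 had 2.56 times the counts of Gbx1, En1 1.38 times those of En2 and Barhl1 1.26 times those of Barhl2. In wild type Eed the pairs lay closer, with ratios of 1.11 for Gbx2 to Gbx1 (0.931 to 1.32), 0.811 for En1 to En2 (0.654 to 1.01) and 1.125 for Barhl1 to Barhl2 (0.904 to 1.40).

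**Figure D1:**
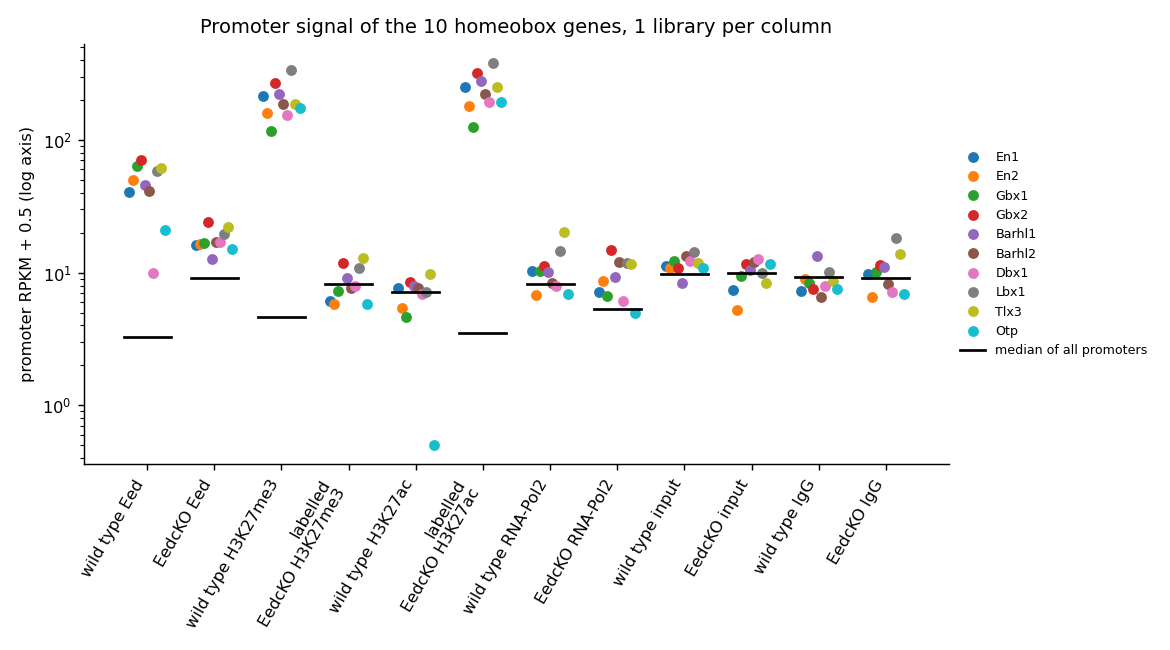
Promoter signal of the 10 genes in each of the 12 libraries, as RPKM plus 0.5 on a log axis; each point is 1 gene and each bar the median of all promoters. Points stand far above the bar in wild type H3K27me3 and in the library labelled EedcKO H3K27ac, and around it in the control libraries; the point of Otp in wild type H3K27ac is a count of 0.

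Wild type Eed was high at 8 of the 10 promoters. Counts were 276 at Gbx2, 249 at Gbx1, 241 at Tlx3, 229 at Lbx1, 196 at En2, 180 at Barhl1, 160 at Barhl2 and 159 at En1. Wild type input had 16 to 28 counts at all 10 windows. These 8 lay at least 2-fold above input, as did 14.5% of 51404 promoters, with log2 ratios from 1.63 at Barhl2 (interval 1.06 to 2.33) to 2.70 at Gbx2 (2.12 to 3.48). Otp had 81 counts beside 21 in input, a log2 ratio of 0.96 (0.29 to 1.76).

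Dbx1, which marks progenitors of ventral hindbrain and spinal interneurons, stood apart among the 10 genes. Its window held 37 Eed counts and 24 input counts, a log2 ratio of -0.31 (-1.11 to 0.48), with 968 H3K27me3 counts. These ratios are scaled by library totals, on which the median promoter was at -1.32. With Eed and input set to an equal median count, all 10 genes, Dbx1 and Otp included, were at least 2-fold above input. The shares that follow are on the scale of library totals only. Of the 1000 promoters with the most wild type H3K27me3, a set formed after the values of Dbx1 were seen, 54.8% had Eed at least 2-fold above input, and 26.2% had Eed at or below input. Across the 10 genes, wild type Eed and H3K27me3 had a Pearson correlation of 0.313 on the log2 scale and a Spearman correlation of 0.236. This describes 10 genes measured in 2 libraries of different assays.

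**Figure D2:**
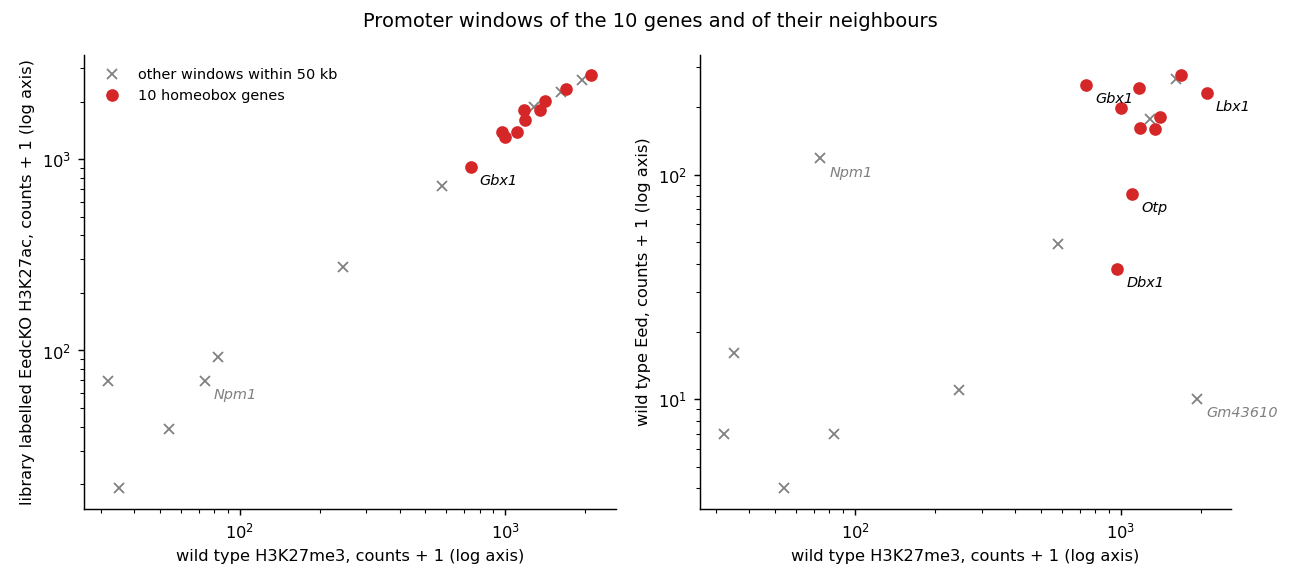
Counts plus 1 in the promoter windows of the 10 genes (red) and of other windows within 50 kb (grey crosses), on log axes, with wild type H3K27me3 on both horizontal axes. In the left panel, with the library labelled EedcKO H3K27ac, the genes follow a line from 907 counts at Gbx1 to 2747 at Lbx1; in the right panel, with wild type Eed, Otp (81 counts) and Dbx1 (37) fall below the other 8 genes.

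Marks of active promoters were near the IgG level. Wild type H3K27ac held 16 to 36 counts at 9 of the promoters, and none of the 10 lay 2-fold above IgG, a level that 15.9% of 50708 promoters reached. Tlx3, which selects the excitatory fate in dorsal spinal neurons, had the highest count, 36 beside 23 in IgG (log2 ratio 0.18, interval -0.61 to 1.01). Otp held 0 H3K27ac counts beside 20 in IgG. Read as up to 3 counts, this is at least 9.18-fold lower than IgG. Otp was the only one of the 10 to lie 2-fold below IgG, where 29.9% of promoters did. Of 36645 promoters with at least as many IgG counts as Otp, 192 (0.524%) had 0 in wild type H3K27ac.

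Wild type RNA-Pol2 ran from 31 counts at En2 to 98 at Tlx3, against a median of 38 over all promoters. Only Tlx3 lay at least 2-fold above IgG among the 10 (98 and 23 counts, log2 ratio 1.23, interval 0.61 to 2.00), beside 11.3% of 51030 promoters. The window of Tlx3 shares 1534 bp with that of Gm12116 on the opposite strand, which held 114 RNA-Pol2 counts, and the reads of both cannot be told apart. The other 9 genes had 31 to 70 counts, and their intervals against IgG all included 0.

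Summit positions showed where along each locus the marks peaked. The submitters' lists give the position of each peak and a score, which is the authors' own and is used here only to rank within a list. The strongest wild type H3K27me3 summit within 10 kb lay downstream of the start in 9 of the 10 genes, from 1684 bp at Gbx1 to 5861 bp at Lbx1, and 779 bp upstream at Barhl2. At Lbx1 this summit (chromosome 19, position 45229950) had the highest score of all 10662 in the list. Those of En2 and Otp ranked 4 and 7, and that of Dbx1, lowest of the 10, ranked 331. Only Barhl2 therefore had an H3K27me3 summit within 1 kb of its start, as 6.40% of symbols did, and 9 genes had one within 5 kb, as 10.3% did.

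The Eed list, with 61019 summits, was longer. In wild type, 9 of the 10 genes, all but En2, had an Eed summit within 1 kb, against 29.1% of symbols, and that of En2 lay 1173 bp downstream. The best-scored within 1 kb were 820 bp downstream at Barhl1, 189 bp downstream at Tlx3 and 948 bp downstream at Gbx2. Within 10 kb, the best-scored Eed summit of Lbx1 lay 4710 bp and that of Otp 8224 bp downstream. At Dbx1 the only Eed summit within 1 kb lay 339 bp downstream, with a score of 6.65, beside 35.3 at Barhl2 to 107 at Barhl1 for the best-scored of the other 8 genes with one. In EedcKO, only Tlx3 had an Eed summit within 1 kb, beside 9.41% of symbols. Within 5 kb, 5 of the 10 had one, as 21.8% of symbols did. None of the 10 had a wild type H3K27ac summit within 1 kb or 10 kb, against 10.3% and 16.5% of symbols, and none a wild type RNA-Pol2 summit, against 4.92% and 8.01%. In EedcKO RNA-Pol2 none had one within 1 kb, against 19.7% of symbols. Barhl1 (2647 bp upstream) and Otp (1823 bp upstream) had one within 5 kb, as 25.0% of symbols did. The list labelled EedcKO H3K27me3 had none within 1 kb or 10 kb of the 10 starts, against 1.18% and 2.00% of symbols. The list labelled EedcKO H3K27ac had one within 1 kb at Dbx1 only (5.93% of symbols) and within 5 kb at 9 genes (9.85%).

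**Figure D3:**
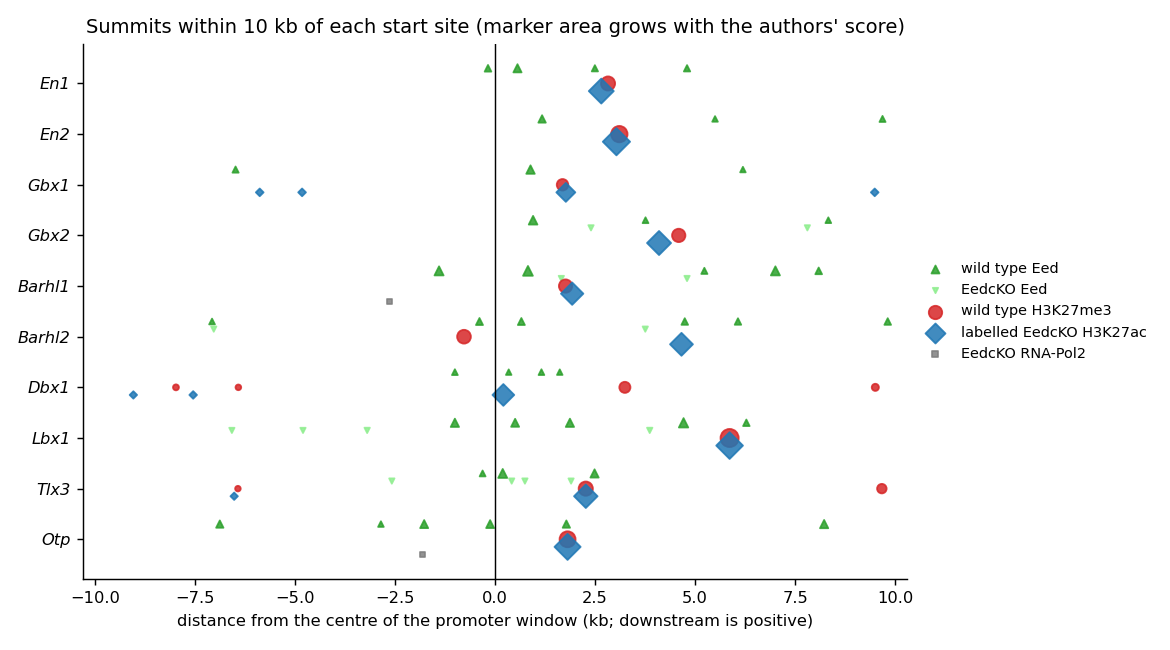
Summits within 10 kb of each start site, by gene (rows) and distance from the centre of the promoter window in kb, with downstream to the right; marker shape and colour give the library, and marker area grows with the authors' score. Large red and blue markers lie together downstream of the start in 8 genes, and lie apart at Barhl2 and Dbx1.

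In the EedcKO Eed library the spread among the 10 genes narrowed, with 35 to 68 counts. Ratios of EedcKO to wild type were scaled by library totals, with 0.5 RPKM added, and are given relative to the median promoter. Relative to it, 9 of the 10 were at least 2-fold lower, as were 30.0% of 50751 promoters tested. Their median relative log2 ratio over all 10 was -2.40 (order-statistic interval over the 10 genes -2.75 to -1.37). Here and below, an interval beside a median describes the spread of these named genes, which are not replicates. Gbx1 went from 249 to 47 counts (-2.81, interval -3.32 to -2.38), Barhl1 from 180 to 35 (-2.75, -3.36 to -2.27) and En2 from 196 to 46 (-2.49, -3.02 to -2.05). Otp went from 81 to 42 (-1.37, -1.95 to -0.82). Dbx1 had 37 counts in wild type and 48 in EedcKO (-0.09, -0.71 to 0.60). Without the shift by the median promoter, Dbx1 was at 0.79 and Otp at -0.49, so the sign at Dbx1 and the 2-fold call at Otp rest on that shift. Of the 1000 promoters with the most H3K27me3, 62.3% were at least 2-fold lower.

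In EedcKO, Eed lay above input at all 10 promoters on the scale of library totals, with a median log2 ratio of 0.90. En2 had 46 counts beside 9 in input (log2 ratio 1.65, interval 0.70 to 2.96), Tlx3 62 beside 15 (1.38, 0.61 to 2.36), En1 45 beside 13 (1.13) and Gbx2 68 beside 21 (1.05, 0.36 to 1.87). These 4 of 10 were at least 2-fold above input, as were 4.71% of 51702 promoters. The median promoter was at -0.02 on this scale and at -1.32 in wild type. The 2-fold counts over input in EedcKO and wild type are therefore not directly comparable. Of the 4, only Tlx3 had an EedcKO Eed summit within 1 kb. The nearest lay 2396 bp from the start of Gbx2, 12196 bp from that of En1 and 13276 bp from that of En2. The ratio of En2 also rests on only 9 input counts. The other 6 genes had log2 ratios from 0.26 at Barhl1 to 0.97 at Lbx1. Of these, the intervals of Gbx1 (0.03 to 1.75) and Lbx1 (0.21 to 1.86) exclude 0. Those of Barhl1, Barhl2, Dbx1 and Otp include 0.

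Taken by label, H3K27me3 was lower in EedcKO at all 10 promoters, at the level of IgG. En1 had 1344 counts in wild type and 19 in EedcKO (relative log2 ratio -5.97, -6.83 to -5.44), Lbx1 had 2108 and 35 (-5.79, -6.38 to -5.38) and Otp had 1102 and 18 (-5.76, -6.64 to -5.21). The smallest difference was at Tlx3, with 1171 and 42 (-4.69, -5.23 to -4.30). All 10 were at least 2-fold lower, as were 13.0% of 50165 promoters, with a median of -5.47 (-5.79 to -4.86). Against EedcKO IgG the library labelled EedcKO H3K27me3 was 2-fold higher at none of the 10, where 5.85% of promoters were. Its median log2 ratio to IgG over the 10 was -0.21 (-0.67 to 0.05).

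Taken by label, H3K27ac was higher in EedcKO at all 10, where 18.2% of 47998 promoters were at least 2-fold higher. Lbx1 had 26 counts in wild type and 2747 in EedcKO (6.76 on the same scale, 6.30 to 7.48), Gbx2 had 31 and 2323 (6.28, 5.85 to 6.92) and Tlx3, with the smallest difference, had 36 and 1798 (5.70, 5.30 to 6.30). Otp went from 0 to 1391, at least 509-fold higher with the 0 read as 3 counts. The median over the 10 was 6.08 (5.80 to 6.76), also with Otp at its bound. Over EedcKO IgG this library was at least 2-fold higher at all 10, as at 6.22% of promoters, with a median log2 ratio of 4.71.

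Set against the wild type libraries of the other mark, these differences were under 2-fold at all genes but Otp. The library labelled EedcKO H3K27ac exceeded wild type H3K27me3 by a relative log2 ratio of 0.39 at Gbx1 to 0.71 at Tlx3, with a median of 0.52 (0.43 to 0.61), and none of the 10 passed 2-fold, where 2.55% of promoters were higher and 4.49% lower. Across the 10 genes these 2 libraries had a Pearson correlation of 0.979 and a Spearman correlation of 0.967. The nearest summits of both lists lay within 500 bp of each other at 8 of the 10 genes, and at the same base at Lbx1 and Otp and 1 bp apart at Tlx3. Of the 331 wild type summits scored at least as high as that of Dbx1, 74.0% had a summit of the other list within 500 bp and 18.4% within 1 bp. The library labelled EedcKO H3K27me3 and wild type H3K27ac differed by a median of 0.18 (-0.13 to 0.55). Otp alone was 2-fold higher there, as 13.0% of promoters were, with 0 and 18 counts, at least 6.38-fold higher with the 0 read as 3 counts.

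**Figure D4:**
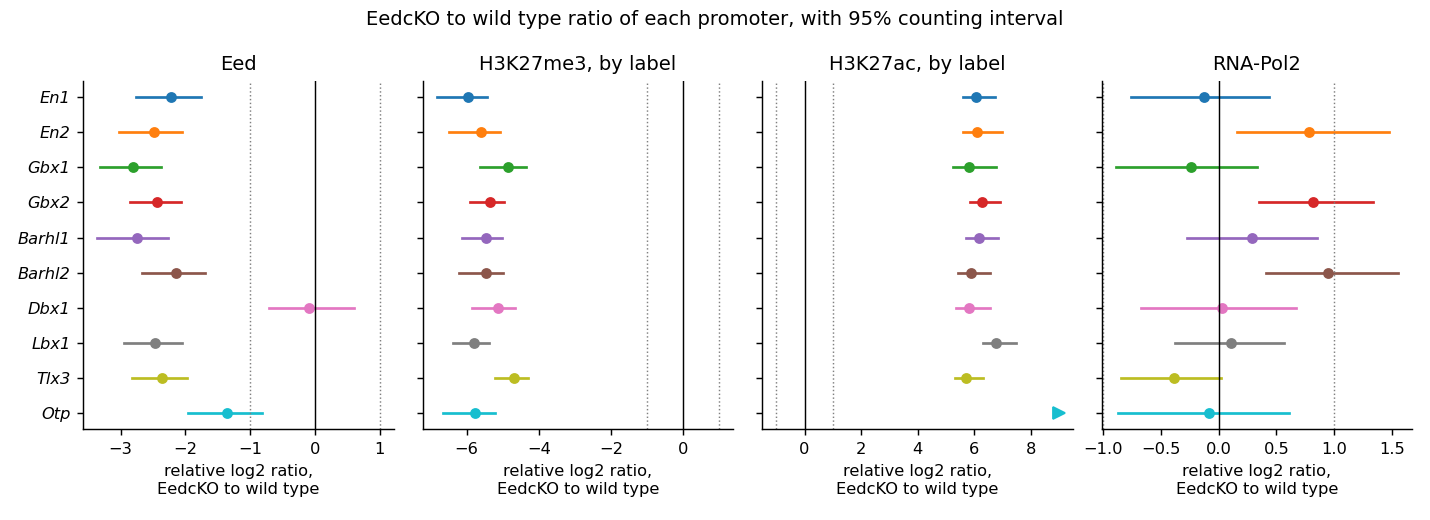
Log2 ratio of EedcKO to wild type for each gene, relative to the median promoter, in 4 panels by target, with exact 95% counting intervals as bars and the 2-fold lines dotted; the arrow of Otp is a lower bound. Eed lies below -1 for all genes but Dbx1, both histone marks lie far from 0 in opposite directions by label, and RNA-Pol2 stays within 2-fold.

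RNA-Pol2 did not pass 2-fold at any of the 10 promoters, where 12.2% of 50379 promoters were higher and 7.86% lower. The median relative log2 ratio was 0.07 (order-statistic interval over the 10 genes -0.24 to 0.82). Barhl2 went from 39 to 89 counts (0.94, interval 0.41 to 1.55), Gbx2 from 53 to 110 (0.82, 0.35 to 1.34) and En2 from 31 to 63 (0.78, 0.16 to 1.47), and these 3 intervals exclude 0. Without the shift by the median promoter the values were 0.53, 0.41 and 0.37, and the intervals of Gbx2 and En2 then include 0. With IgG subtracted, Gbx2 turned to -0.43. Relative to the median promoter, the intervals of the other 7 genes include 0, with values from -0.38 at Tlx3 (98 to 86 counts) to 0.29 at Barhl1 (48 to 68). Without the shift, Tlx3 was at -0.79 and Gbx1 at -0.65, and both intervals then lie below 0. EedcKO IgG held 24, 34 and 19 counts at Barhl2, Gbx2 and En2, and over it none of the 10 reached 2-fold in EedcKO RNA-Pol2, beside 11.8% of promoters. When the libraries were instead set to an equal median count, En2 (just past it), Gbx2 (1.06) and Barhl2 (1.18) passed 2-fold.

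H3K27me3 at other annotated starts within 50 kb differed from locus to locus. Reads between these windows were not counted, so the extent of each domain was not traced. Gm43610, whose window is centred 3.1 kb downstream of the En2 start on the opposite strand, had 1934 wild type H3K27me3 counts against 999 at En2 itself, and 9 Eed counts against 196. D130058E05Rik overlaps Gbx2 by 1055 bp and had 1616. Gm26872, 12.8 kb from Barhl2, had 577 and 2610027F03Rik, 19.3 kb from En1, had 244. Beside Gbx1, Asb10 at 13.8 kb had 82 and Iqca1l at 29.6 kb had 53. Gm13394, 17.9 kb from Barhl1, had 31. Npm1, a nucleolar protein gene in general use 40.4 kb from Tlx3, had 73 H3K27me3 counts and 117 Eed counts, beside 16 in IgG and 25 in input.

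Heavy H3K27me3 was also found at other regulators of the same regions. Of 15 isthmus and midbrain genes, 14 had wild type H3K27me3 at least 2-fold over IgG, and the median count of the 15 was 1203. The log2 ratio was lowest at Nr4a2 (0.99, 61 counts) and highest at Pou4f1 (5.16, 987 counts). Of 29 hindbrain and spinal cord genes 28 did, with a median count of 1431, the lowest ratio at Lhx4 (0.93, 255 counts) and the highest at Foxd3 (5.52, 1374 counts). Of 10 hypothalamic, thalamic and preoptic genes 9 did, with the lowest ratio at Arnt2 (0.13, 59 counts) and the highest at Nkx2-4 (5.60, 802 counts). Of 16 forebrain regulators 15 did, with a median count of 516.5, the lowest ratio at Bcl11b (0.72, 39 counts) and the highest at Eomes (4.81, 778 counts). Of 15 housekeeping genes 2 did, with the lowest ratio at Pgk1 (-0.81, 19 counts) and the highest at Polr2a (2.16, 61 counts beside 5 in IgG).

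H3K27ac was at least 2-fold over IgG in wild type at 8 of 16 forebrain regulators and 12 of 15 housekeeping genes. It was so at 1 of 15 isthmus and midbrain genes, 0 of 29 hindbrain and spinal cord genes, 1 of 10 hypothalamic, thalamic and preoptic genes and 0 of the 10 homeobox genes. RNA-Pol2 was so at 5 and 11 of the forebrain regulators and housekeeping genes, and at 1, 0, 2 and 1 of the latter 4 lists. Wild type Eed was at least 2-fold over input at 8 of the 10 homeobox genes, 10 of 16 forebrain regulators and 5 of 15 housekeeping genes. It was so at 7 of 15 isthmus and midbrain, 17 of 29 hindbrain and spinal cord and 4 of 10 hypothalamic, thalamic and preoptic genes. Relative to the median promoter, Eed was at least 2-fold lower in EedcKO at 9 of 15, 16 of 29, 6 of 10, 12 of 16 and 9 of 15 members of the 5 lists, in the order isthmus, hindbrain, hypothalamus, forebrain and housekeeping, with medians of -1.84, -1.40, -1.51, -1.98 and -1.11. By label, H3K27me3 was lower at 14, 29, 9, 15 and 0 of them, with medians of -4.74, -5.08, -4.93, -3.57 and 0.46. With the library labelled EedcKO H3K27ac in its place the medians turned to 0.62, 0.56, 0.58, 0.58 and -0.11.

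**Figure D5:**
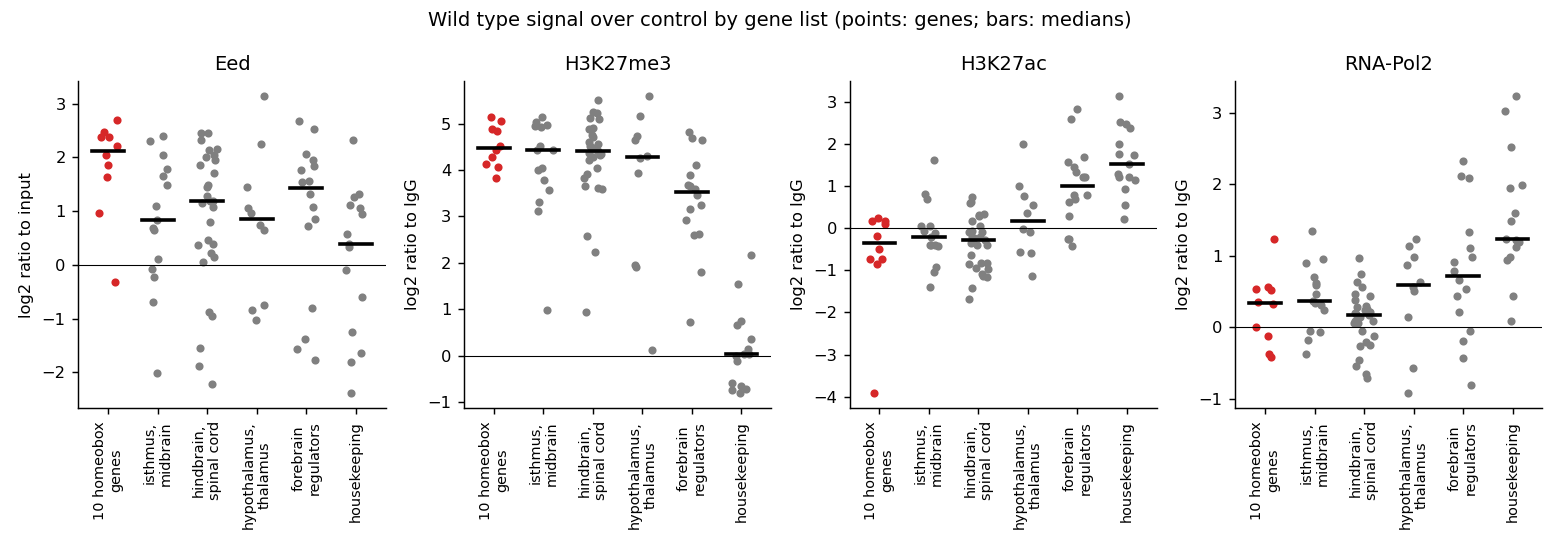
Wild type log2 ratio to input (Eed) or IgG (other targets) for the 10 homeobox genes (red) and 5 comparison lists (grey); points are genes and bars are list medians. H3K27me3 is high in every list but housekeeping genes, whereas the H3K27ac bars lie above 0 for the hypothalamus and thalamus, forebrain and housekeeping lists and below it for the others.

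By profile over the 12 libraries, the protein-coding genes most like the median of the 10 were Lmx1b (Pearson correlation 0.996), Nkx6-1 (0.995), Onecut3 (0.995), Ccdc3 (0.995) and Aqp5 (0.994), on log2 RPKM plus 0.5. Lmx1b had 1618 wild type H3K27me3 counts and 198 Eed counts, and Ccdc3 had 398 and 100. Among the 10 themselves En1 was closest to that median profile (0.996) and Otp farthest (0.886), with Dbx1 next to it (0.928). All correlations share the same 12 libraries.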

How the data were processed

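Promoter windows were counted by the authors in 12 libraries; the deposited tables hold whole-number read counts, although they are named for RPKM, in 55385 windows. The deposited summit lists give each peak's position with a −log10 score (of a p-value or a q-value, not said which). Per the submitters' processing notes, the build was mm10 and the tools were ChIPseeker 1.22.1, Bowtie2 2.4.1, deepTools 3.4.0 and MACS2 2.2.7.1, with no read filter given in the sources used here.

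Python 3.11.15 with numpy 2.4.6, pandas 2.3.3 and scipy 1.17.1 was used. For each symbol 1 window was kept, that of greatest mean RPKM in the 8 libraries with a specific antibody. RPKM used the window length and the total promoter count. Log2 ratios had a pseudocount of 0.5 RPKM, and promoters under a mean of 1 RPKM in the 2 libraries were not tested. For EedcKO against wild type the median ratio of all tested promoters was removed: 0.88 (Eed), 0.85 (H3K27me3), -1.04 (H3K27ac by label) and -0.41 (RNA-Pol2). Ratios to control libraries were not shifted, and their medians over all tested promoters were in wild type -1.32 (Eed), -1.03 (H3K27me3), -0.40 (H3K27ac) and -0.22 (RNA-Pol2). In EedcKO, by label, these medians were -0.02 (Eed), -0.10 (H3K27me3), -1.30 (H3K27ac) and -0.63 (RNA-Pol2). The size rule was 2-fold. Each gene's ratio has a 95% interval from the exact Clopper-Pearson bounds of its 2 counts. Such an interval reflects counting of reads alone, and it is too narrow if PCR copies of a molecule were counted more than once. For the fold given at a count of 0, 3 counts stood in for the 0. The ratio code was tested on simulated data.

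All 10 genes are named; comparison lists are described by counts, with the members of highest and lowest H3K27me3 over IgG named, and the 5 protein-coding genes most like the 10 by profile. The genes and lists were chosen with earlier results of these data known. Alternatives covered the scaling, pseudocount, control subtraction, window choice, read minimum, summit distance, summit score and library label. The value of 1 forebrain marker is not reported here.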

Additional observations from a re-analysis of the deposited data

How the results depend on the processing

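No paired analysis was possible because each genotype and target has 1 library, and leaving out a library leaves no comparison. With the library labelled EedcKO H3K27ac in place of that labelled EedcKO H3K27me3, the H3K27me3 median of the 10 genes turned from -5.47 to 0.52 and the number at least 2-fold lower went from 10 to 0. The single genes turned to 0.52 (En1), 0.48 (En2), 0.39 (Gbx1), 0.55 (Gbx2), 0.60 (Barhl1), 0.52 (Barhl2), 0.61 (Dbx1), 0.47 (Lbx1), 0.71 (Tlx3) and 0.43 (Otp). With the opposite exchange, the H3K27ac median fell from 6.08 to 0.18, 1 gene was at least 2-fold higher, and En1 (-0.44) and Barhl2 (-0.13) changed sign.

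Without the shift by the median promoter the medians were -1.52 for Eed, with 8 genes at least 2-fold lower against 9, -4.62 for H3K27me3, 5.05 for H3K27ac, -0.34 for RNA-Pol2 and 0.23 for the library labelled EedcKO H3K27ac against wild type H3K27me3. With the libraries set to an equal median count, the Eed median was -3.09, that last comparison gave 0.67, and 3 genes were at least 2-fold higher in RNA-Pol2. With the control library subtracted, which leaves values near 0 at many promoters, the medians were -10.96 for H3K27me3, 11.96 for H3K27ac, 0.38 for the last comparison and -2.75 for RNA-Pol2, where 7 genes could be tested, 4 of them lower and 1 higher; Dbx1 was then higher in Eed, at 3.30, so 1 gene passed 2-fold upwards. With summits within 5 kb or 500 bp of a start, 9 and 0 genes had a wild type H3K27me3 summit, against 1 within 1 kb. In 111 of the 131 recomputed counts and medians, the value stayed within 1.5 times the main count or within the interval of the main median. The tally includes the mean over all windows of a symbol. That setting could not move these genes, with 1 window each, except through the median shift. Low counts limit the ratios to the controls: the 10 genes had 9 to 28 counts in the inputs and 17 to 56 in IgG, and 9 of them 16 to 36 in wild type H3K27ac.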
